A study of Homo sapiens with 12 samples.

Results

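The response to hydrogen peroxide (H2O2) was taken from 8 of the 12 RNA sequencing libraries of the series, chosen by treatment label alone: the 4 libraries of H2O2-treated cultures and the 4 of untreated cultures. All were HEK293T, a human embryonic kidney cell line, carrying a lentiviral hairpin. In the shHuR line the hairpin targets ELAVL1, which encodes the RNA-binding protein HuR, and in the shControl line it is a control hairpin. Each line was a population kept after puromycin selection and stands on 1 hairpin, so line and hairpin cannot be told apart. The 4 groups compared were untreated shControl, untreated shHuR, shControl with 225 µM H2O2 for 18 h and shHuR with 225 µM H2O2 for 18 h, with 2 libraries labelled as biological replicates in each. The other 4 libraries received an alkyne form of the lipid aldehyde 4-hydroxynonenal (HNE, 25 µM, 18 h) and serve below as a second agent. The series title puts the question as what HuR does to the transcriptome under oxidants and electrophiles, and the comparison here asks what H2O2 itself changed.

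H2O2 crosses membranes, oxidises reactive cysteines and, with iron, gives rise to hydroxyl radicals that damage DNA. Catalase, glutathione peroxidases and peroxiredoxins remove it, drawing on thioredoxin and glutathione. Cells are known to answer oxidants through several transcription factors: NRF2, which KEAP1 holds at low levels until its cysteines are modified, p53 and base excision repair after DNA damage, HSF1 for misfolded protein, and ATF4, which raises amino acid transport and synthesis. HEK293T cells carry viral T antigen, which binds p53, and cultured cells clear added H2O2 from their medium over time.

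The 8 libraries held 24855946 to 28945637 counts over 23615 listed genes. The TMM scaling factors, which adjust library size for composition, ran from 0.979 to 1.02. ELAVL1 was measured at 90.8 and 86.2 CPM (counts scaled to a common library total) in untreated and 92.8 and 99.5 CPM in H2O2-treated shControl cells. In shHuR cells its levels were 70.5 and 70.6 CPM untreated and 70.9 and 74.9 CPM with H2O2, below every shControl library. With treatment in the model the difference between the lines was -0.36 on the log2 scale (SE 0.0480, edgeR adjusted p = 0.000108), a level 22.3% lower. The 21 bases of ELAVL1 that the hairpin is built on, shown because they define the shHuR line, matched reference transcripts of that gene alone, in the coding sequence of exon 5 of 6 at chr19:7967669-7967689 on the minus strand (GRCh38, GENCODE release 29).
shHuR target: cccatcacagtgaagtttgca

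The summed level of 13 genes known from HEK293T cells was 1641 to 1717 CPM in shControl and 1311 to 1401 CPM in shHuR libraries. Most of it came from VIM, IGF2BP1 and LIN28B. PAX2, of the same list, was at only 0.144 to 0.479 CPM, below LYZ of the blood markers at 3.80 to 5.34 CPM. The summed level of 26 markers of blood, endothelial, fibroblast, muscle, liver, neural and skin cells was 20.0 to 23.7 CPM, with 6 to 11 of the 26 at 0 in a library. The first principal component (37.8% of the variance) split the lines from each other. Replicate 1 of the H2O2-treated shControl group stood apart on the second (17.8%), at -23.0 against -6.63 to 12.9 in the other 7 libraries. It also had the fewest genes with a count, 17278 against 18057 to 18301. Averaged over genes, line accounted for 36.5% of the sum of squares of log2 CPM, treatment for 11.5%, and the difference of the treatment effect between lines for 10.3%. Each degree of freedom between replicates took 10.4%, about the share of treatment.

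No gene passed the threshold for H2O2 against untreated cells. Of 15801 genes tested with line as a covariate, 0 had an edgeR adjusted p under 0.05 (0% of genes), and the smallest adjusted p was 0.131. At an unadjusted p under 0.05 there were 861 genes (5.45%), of which 365 were higher (2.31%) and 496 lower (3.14%) with H2O2. Both H2O2 libraries lay above both untreated libraries in each line for 488 genes (3.09%), and below them for 497 (3.15%). The median log2 fold change over all genes was -0.00050, and 7866 genes (49.8%) had an estimate above 0 and 7935 (50.2%) one below. Leaving out the shControl library that stood apart again gave 0 called genes. As these are RNA levels of whole cultures scaled to library size, fewer cells of a kind and less RNA per cell cannot be told apart.

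The measurement also bounded how large an undetected change could be. The 95% confidence interval of the log2 fold change lay within 0.5 of 0, a 1.41-fold change either way, for 11737 genes (74.3%). It lay within 1, a 2-fold change, for 14188 genes (89.8%). Among the 11359 genes with a mean of at least 5 CPM in the higher group these shares were 97.3% (11050 genes) and 99.9% (11346 genes), with a median SE of 0.0663. An estimate beyond 1 was given by 101 genes, 34 higher and 67 lower, and counts of 28 of them were not whole numbers. At 5 CPM or more in the higher group only 3 estimates lay beyond 1. They belonged to the readthrough genes C10orf32-AS3MT (-2.75), COMMD3-BMI1 (2.41) and C8orf44-SGK3 (-1.12), chosen for mention after their values were seen. All 3 had estimated counts that were not whole numbers, and their libraries overlapped between treatments: COMMD3-BMI1 was at 0 in both untreated shHuR libraries and in 1 H2O2-treated shControl library, and at 9.66 CPM in an untreated shControl one.

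**Figure D1:**
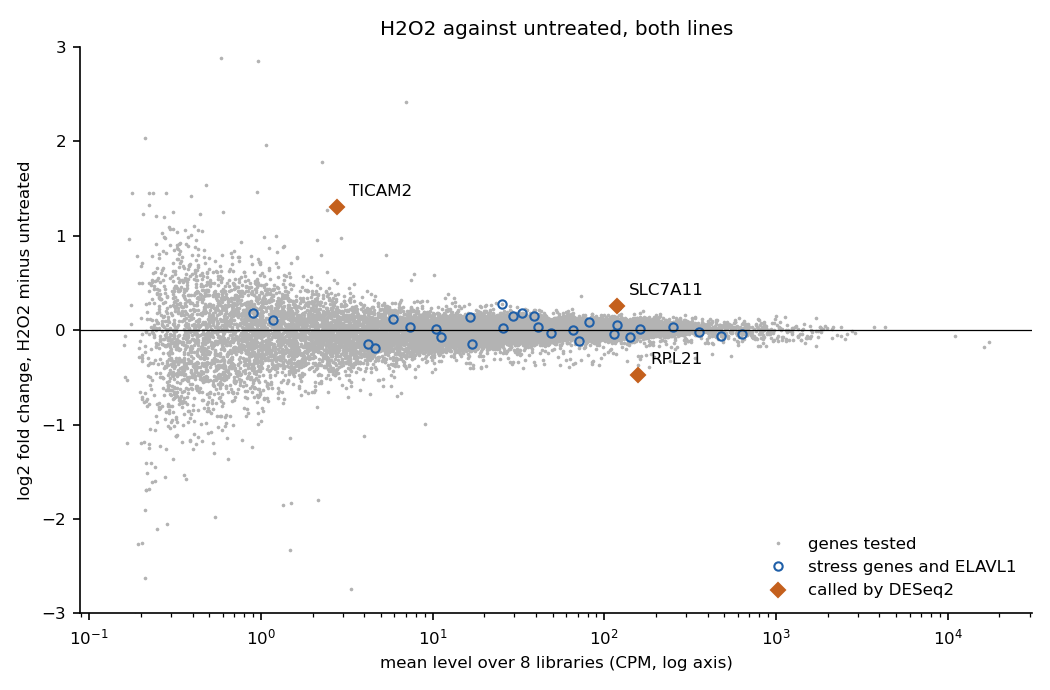
Log2 fold change of H2O2 minus untreated (vertical axis, both lines, line as covariate) against mean level in CPM (horizontal log axis) for the 15801 genes tested, without 5 genes beyond 3 on the vertical axis. Open circles are 29 genes chosen by name (stress genes and ELAVL1) and diamonds are the 3 genes called by DESeq2: the cloud narrows around 0 as level rises, and the circles lie within it.

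Other tools called a few genes. DESeq2's Wald test on the same counts called 3 of 15801 (0.0190%): RPL21, TICAM2 and SLC7A11. RPL21, a protein of the large ribosomal subunit, was listed at 191 and 189 CPM in untreated and 144 and 141 CPM in H2O2-treated shControl cells. In shHuR cells it was at 178 and 174 CPM untreated and 139 and 104 CPM with H2O2, so all 4 treated libraries were below all 4 untreated ones, as for 150 of all genes tested (0.949%). Its log2 fold change was -0.47 (SE 0.0704, edgeR adjusted p = 0.131, DESeq2 adjusted p = 5.88e-07). TICAM2, an adaptor of Toll-like receptor signalling, went from 1.41 and 1.15 to 2.70 and 1.90 CPM in shControl cells and from 1.71 and 1.84 to 5.57 and 5.85 CPM in shHuR cells, untreated first. Its log2 fold change was 1.31 (SE 0.209, edgeR adjusted p = 0.137, DESeq2 adjusted p = 0.000296).

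The deposited counts of both genes were not whole numbers, and whether reads were divided with another gene is not given in the sources used here. TICAM2 lies inside the readthrough gene TMED7-TICAM2 on chromosome 5, and RPL21P28 on chromosome 1 is a processed pseudogene of RPL21. In shHuR cells TMED7-TICAM2 was at 8.65 and 6.35 CPM untreated and at 4.33 and 2.09 CPM with H2O2, where TICAM2 was higher. The 2 genes together averaged 9.36 CPM in untreated and 9.21 CPM in H2O2-treated libraries, a log2 difference of -0.02 (SE 0.111, edgeR adjusted p = 0.993). RPL21 and RPL21P28 together averaged 800 CPM untreated and 776 CPM with H2O2, a difference of -0.04 (SE 0.0609, edgeR adjusted p = 0.962). Most of that sum was RPL21P28, at a mean of 617 CPM untreated and 644 CPM with H2O2, with overlapping treatments in each line. A change of RPL21 alone would therefore hardly show in the sum, and whether reads moved between the 2 was not tested. Once these pairs and that of NBL1 and C1orf151-NBL1 were summed, edgeR called 0 genes and DESeq2 called SLC7A11 alone. The 2 genes called by limma on log2(FPKM + 1) among 12861 (0.0156%), SNORD20 and MIR10A, had 0 to 3 counts in each of the 8 libraries. Without the filter on low counts edgeR called 117 of 20476 genes, 20 higher and 97 lower. Of the 117, 44 had counts that were not whole numbers, and all had also been tested with the filter. Leaving out 1 library gave 0 calls or 1: RPL21 without either replicate of the treated shHuR group, TICAM2 without replicate 2 of the treated shControl group, and C9orf174 without replicate 1 of the untreated shControl group.

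**Figure D2:**
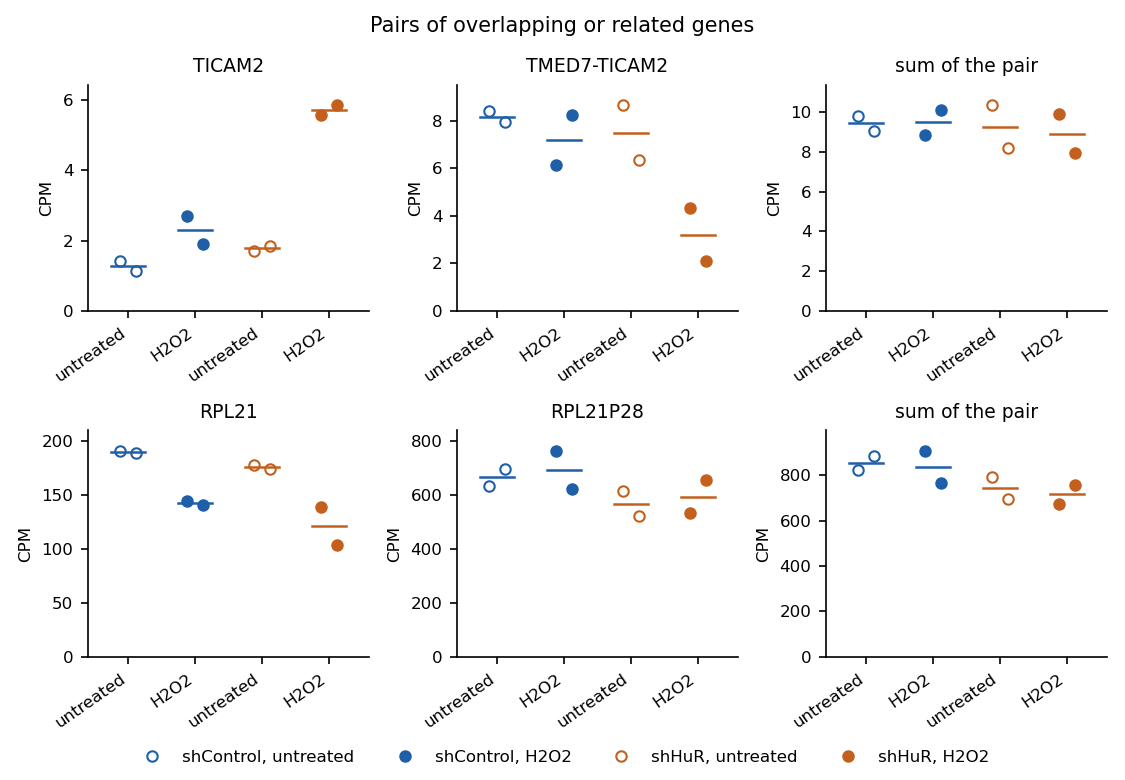
Level in CPM (vertical axes, from 0) in each untreated (open) and H2O2-treated (filled) library of the shControl (blue) and shHuR (orange) lines, with group means as bars, for TICAM2 and its readthrough gene, RPL21 and its pseudogene, and the sum of each pair. TICAM2 is higher and RPL21 lower with H2O2, while the sums overlap between treatments, at 7.94 to 10.4 CPM and at 673 to 908 CPM.

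SLC7A11, the light chain of the cystine importer that supplies cysteine for glutathione and a target of both NRF2 and ATF4, had whole-number counts. It measured 119 and 106 CPM in untreated and 142 and 136 CPM in H2O2-treated shControl cells. In shHuR cells it measured 105 and 100.4 CPM untreated and 118 and 120 CPM with H2O2. Both treated libraries were above both untreated ones in each line, although the treated shHuR libraries overlapped the untreated shControl ones. The log2 fold change was 0.26 (SE 0.0493, 95% interval 0.16 to 0.37), a mean level 19.8% higher. Its edgeR adjusted p was 0.534 and its DESeq2 adjusted p 0.00964. Once the pairs were summed these were 0.902 and 0.0289.

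No enzyme that removes H2O2 was called, and for 13 of the 15 scavenger genes tested the 95% interval lay within 0.5 of 0. Of the 15, 6 had estimates above 0 and 9 below, with a median of -0.04 against -0.00050 over all genes. At an unadjusted p under 0.05, 1 was higher and none lower, where 2.31% of all genes were higher and 3.14% lower. That gene was CAT, encoding catalase, at 32.5 and 30.2 CPM untreated and 35.7 and 38.2 CPM with H2O2 in shControl cells, and at 30.8 and 30.6 against 33.7 and 33.7 CPM in shHuR cells. All 4 treated libraries were above all 4 untreated ones, an order that 115 of 15801 genes (0.728%) showed in this direction. The difference of 0.19 (SE 0.0595, 95% interval 0.06 to 0.31) did not pass (edgeR adjusted p = 0.900). The peroxidases GPX1 (0.01, interval -0.10 to 0.13), GPX4 (-0.07, -0.18 to 0.03) and PRDX1 (-0.04, -0.16 to 0.09) and the superoxide dismutases SOD1 (-0.06, -0.20 to 0.09) and SOD2 (-0.05, -0.15 to 0.06) had intervals that included 0.

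Of the NRF2 pathway edgeR called no member, while DESeq2 called the target SLC7A11 (adjusted p = 0.00964). NFE2L2, the gene of NRF2 itself, was at 22.3 and 20.3 CPM in untreated and 29.3 and 29.5 CPM in treated shControl cells, where the groups did not overlap. In shHuR cells it was at 22.9 and 26.4 CPM untreated and 27.0 and 25.8 CPM treated, where they did. Its log2 fold change was 0.28 over both lines (SE 0.0841, edgeR adjusted p = 0.900). KEAP1, which marks NRF2 for degradation, was at -0.0018 (95% interval -0.12 to 0.12). Of 33 NRF2 target genes tested, 22 had estimates above 0 and 11 below, with a median of 0.02. Those higher at an unadjusted p under 0.05 were 2, SLC7A11 and GCLM, where 2.31% of all genes were. There were 5 without treated shControl replicate 1, when 15 members lay above 0 and the median was -0.0042, and 5 without untreated shHuR replicate 2.

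GCLM, the modifier subunit of the enzyme that begins glutathione synthesis, went from 33.9 and 34.1 to 39.0 and 36.6 CPM in shControl cells. In shHuR cells it went from 39.9 and 41.1 to 44.2 and 45.1 CPM, so both treated libraries were again above both untreated ones within each line. Its estimate was 0.15 (SE 0.0536, edgeR adjusted p = 0.900). HMOX1, the haem-degrading oxygenase that electrophiles induce, was at 9.37 and 10.6 CPM untreated and 10.4 and 10.4 CPM treated in shControl cells, and at 11.1 and 10.8 against 9.39 and 11.8 CPM in shHuR cells. The treatments overlapped in both lines, and the estimate of 0.01 had a 95% interval of -0.20 to 0.22. The interval was -0.14 to 0.37 for NQO1, a quinone reductase, -0.16 to 0.11 for GCLC, the catalytic partner of GCLM, -0.06 to 0.14 for TXNRD1, thioredoxin reductase, and -0.09 to 0.16 for SRXN1, which repairs overoxidised peroxiredoxins. Among 25 genes of the thioredoxin and glutathione systems the median was 0.01, with 13 estimates above 0 and 12 below.

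**Figure D3:**
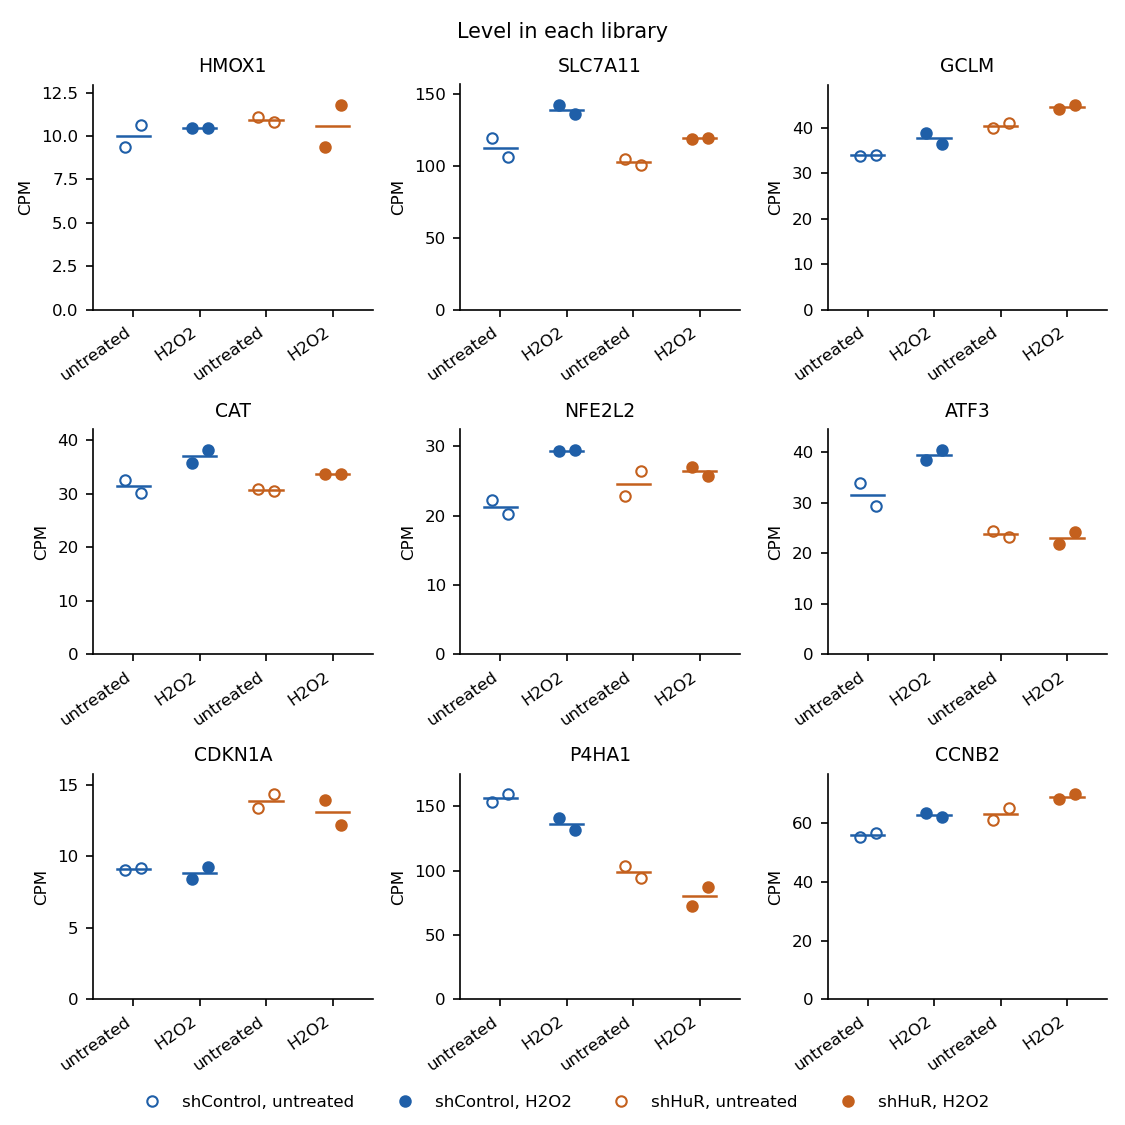
Level in CPM (vertical axes, from 0) of 9 genes in each untreated (open) and H2O2-treated (filled) library of the shControl (blue) and shHuR (orange) lines, with bars at group means. HMOX1 and CDKN1A overlap between treatments in both lines, whereas SLC7A11, GCLM, CAT and CCNB2 are higher and P4HA1 lower in both treated libraries of each line.

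The same design did call genes for the other agent. HNE against untreated gave 39 of 15780 genes (0.247%), 16 higher (0.101%) and 23 lower (0.146%), and a direct comparison of the H2O2 with the HNE libraries gave 18 of 15769 (0.114%), 7 higher (0.0444%) and 11 lower (0.0698%) with H2O2. Both comparisons with untreated cells share the same 4 control libraries. The counts moved with single libraries. For HNE against untreated there were 3 calls if untreated shHuR replicate 2 was left out and 168 if HNE-treated shControl replicate 2 was. For H2O2 against HNE there were 5 if any 1 of the 4 treated shHuR libraries was left out and 267 if HNE-treated shControl replicate 1 was. Scaled over all 12 libraries, HMOX1 was at 25.0 and 30.5 CPM with HNE in shControl cells and at 25.7 and 31.7 CPM in shHuR cells, above all 8 other libraries, where it was 9.34 to 11.7 CPM. Its log2 difference between H2O2 and HNE was -1.43 (SE 0.102, edgeR adjusted p = 3.91e-05). The other 4 genes with the smallest p in that comparison were FTL, the ferritin light chain that stores iron (-0.76, adjusted p = 0.000562), PIR, the iron-binding protein pirin (-0.72, adjusted p = 0.00103), TXNRD1 (-0.58, adjusted p = 0.00103) and CYP4V2, a fatty acid hydroxylase (0.75, adjusted p = 0.00437). H2O2 against untreated gave 0.05 for FTL, 0.04 for PIR, 0.04 for TXNRD1 and 0.12 for CYP4V2, none of them past the threshold, and PIR had counts that were not whole numbers. SLC7A11 did not differ detectably between the agents (0.04, 95% interval -0.06 to 0.14).

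Genes of the DNA damage response were not called. Of 24 p53 target genes tested, 6 had estimates above 0 and 18 below, with a median of -0.05, -0.0068 in shControl and -0.10 in shHuR, a difference that was not tested for the list. None was higher at an unadjusted p under 0.05 and 3 were lower, where 3.14% of all genes were. Only 1 was lower without untreated shHuR replicate 1 or treated shHuR replicate 2, with library size alone or with the replicate block, and 2 to 4 were when any other library was left out. DDB2, which recognises damaged DNA, was at 17.4 and 18.0 CPM untreated and 16.4 and 15.6 CPM treated in shControl cells, and at 13.2 and 14.4 against 10.3 and 11.1 CPM in shHuR cells (-0.25, SE 0.0827, edgeR adjusted p = 0.900). The others were BAX, a promoter of apoptosis (-0.12), and PLK3 (-0.55), which had under 4 CPM in every library. CDKN1A, the cell cycle inhibitor p21, was at 9.07 and 9.21 CPM untreated and 8.43 and 9.26 CPM treated in shControl cells, and at 13.4 and 14.3 against 14.0 and 12.2 CPM in shHuR cells. Treatments overlapped in both lines (-0.07, 95% interval -0.26 to 0.12). MDM2, which degrades p53, was at -0.02 and GADD45A, a growth arrest gene, at 0.02. Of 23 genes of base excision and oxidative DNA repair, none had an unadjusted p under 0.05, where 5.45% of all genes had one. All 23 had intervals within 0.5 of 0. OGG1, which removes oxidised guanine, was at -0.15 (interval -0.42 to 0.12), with the lowest value, 10.1 CPM, in the treated shControl library that stood apart and 15.2 to 20.2 CPM in the other 7.

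Heat-shock genes were not called. Of 25 tested, 20 lay above 0 and 5 below, with a median of 0.03. At most 11 lay below 0 with a library left out, when replicate 2 of the untreated shHuR group was missing and the median was 0.0022. There were 5 with an unadjusted p under 0.05, all higher, where 2.31% of all genes were. That count fell to 2 without treated shControl replicate 1, untreated shControl replicate 1 or treated shHuR replicate 2, and to 3 without treated shHuR replicate 1. HSPA1B, an inducible HSP70, was at 231 and 225 CPM untreated and 233 and 260 CPM treated in shControl cells, and at 412 and 410 against 461 and 461 CPM in shHuR cells. Treated libraries were above untreated ones within each line, but the lines differed more than the treatments did. Its estimate was 0.14 (SE 0.0447, edgeR adjusted p = 0.900), and those of HSPA8, the constitutive HSP70, HSPH1, its exchange factor, HSPA5, the HSP70 of the endoplasmic reticulum, and DNAJB1, an HSP40, were 0.13, 0.13, 0.09 and 0.11. HSPA1B and HSPA1A encode nearly the same protein, so reads may be shared between them, and HSPA1A was listed at 0.717 to 1.66 CPM. Of 22 genes of the unfolded protein response the median was 0.03, and XBP1, its transcription factor, was at 0.12 (unadjusted p = 0.0154).

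Targets of ATF4, the transcription factor of the integrated stress response, had, with the G2/M genes below, the highest median of the lists. Of 25 tested, 19 had estimates above 0 and 6 below, with a median of 0.07 against -0.00050 over all genes. At an unadjusted p under 0.05, 5 were higher and none lower, where 2.31% of all genes were higher. None passed adjustment in edgeR, while DESeq2 called SLC7A11. The 5 were, besides SLC7A11, amino acid genes: ASNS, PSAT1, SLC7A5 and SLC1A5. ASNS, asparagine synthetase, was at 189 and 184 CPM untreated and 214 and 220 CPM treated in shControl cells, and at 193 and 195 against 212 and 203 CPM in shHuR cells. All 4 treated libraries were above all 4 untreated ones (0.16, SE 0.0438, edgeR adjusted p = 0.900). PSAT1, of serine synthesis, was at 0.12, and the amino acid transporters SLC7A5 and SLC1A5 were at 0.21 and 0.14, with overlapping libraries in at least 1 line.

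The list's median was 0.13 in shControl and -0.02 in shHuR, a difference that was not tested for the list. The mean log2 deviation of its members was 0.01 and -0.06 in the untreated and 0.09 and 0.11 in the treated shControl libraries, which did not overlap. In shHuR libraries it was -0.04 and -0.02 untreated and -0.05 and -0.04 treated. ATF3, a stress-induced transcription factor, went from 33.8 and 29.3 to 38.4 and 40.5 CPM in shControl cells and from 24.3 and 23.1 to 21.9 and 24.2 CPM in shHuR cells. The difference between its responses was -0.36 (unadjusted p = 0.0181, edgeR adjusted p = 1.00), so it did not pass the test. DDIT3, encoding CHOP, was at 0.04 (interval -0.20 to 0.28). Leaving out each library in turn moved the list's median from 0.04 to 0.10, and its members with an unadjusted p under 0.05 and a higher level from 3, without replicate 2 of either shControl group, to 8, without treated shHuR replicate 1.

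A core of the amino acid response element bound by ATF4, TGATGNAA, was searched on both strands in the 250 bases before each RefSeq start (GRCh38.p14). It was found for 4 of the 19 list members with such a window (21.1%) and for 3.89% of 27305 genes. The stretches of all 4 are shown for comparison, 3 with estimates above 0 and CHAC1, a glutathione-degrading enzyme, at -0.12. The capitals mark the element, which begins 68 bases before the start for ASNS, 97 for SLC1A5, 191 for ATF3 and 209 for CHAC1, where it reads in reverse complement. A match describes the letters of the window and says nothing of binding. ASNS is read at chr7:97872458-97872487 on the minus strand, SLC1A5 at chr19:46784893-46784922 on the minus strand, ATF3 at chr1:212565205-212565234 on the plus strand and CHAC1 at chr15:40953251-40953280 on the plus strand.
ASNS: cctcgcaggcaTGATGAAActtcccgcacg
SLC1A5: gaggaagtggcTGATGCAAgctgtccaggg
ATF3: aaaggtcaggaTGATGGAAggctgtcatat
CHAC1: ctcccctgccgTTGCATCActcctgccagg

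Targets of the hypoxia-inducible factor HIF, which is degraded when prolyl hydroxylases such as EGLN1 have oxygen and iron, lay furthest below 0 among the 27 lists. Of 29 tested, 4 had estimates above 0 and 25 below, with a median of -0.11. At an unadjusted p under 0.05, none was higher and 9 were lower, where 3.14% of all genes were lower, and none passed adjustment. Without the filter on low counts edgeR called 117 of 20476 genes. Of the 9, 4 were among them: P4HA1 (edgeR adjusted p = 0.00086), BNIP3 (0.0012), PDK1 (0.0199) and PGK1 (0.0278). Calls of that fit are given here for this list alone. With the filter the smallest edgeR adjusted p of the list was 0.900. P4HA1, a collagen prolyl hydroxylase, was at 153 and 159 CPM untreated and 141 and 132 CPM treated in shControl cells, and at 104 and 94.2 against 72.7 and 87.5 CPM in shHuR cells. Treated libraries were below untreated ones in each line (-0.25, SE 0.0596, edgeR adjusted p = 0.900). BNIP3, a mitophagy receptor, was at 145 and 146 CPM untreated and 139 and 130 CPM treated in shControl cells, and at 104 and 89.0 against 63.9 and 84.2 CPM in shHuR cells (-0.25, SE 0.0812). PDK1, a pyruvate dehydrogenase kinase, was at -0.21 and the glycolytic kinase PGK1 at -0.17. The remaining 5 were SLC2A3, a glucose transporter (-0.38), P4HA2 (-0.20), the demethylase KDM3A (-0.12), EGLN1 (-0.11) and LDHA, lactate dehydrogenase (-0.10).

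The HIF list's median was -0.03 in shControl and -0.20 in shHuR, a difference that was not tested for the list. The mean log2 deviation of its members was 0.26 and 0.21 in untreated and 0.26 and 0.18 in treated shControl libraries, which overlapped. In shHuR libraries it was -0.09 and -0.14 untreated and -0.41 and -0.26 treated, with the lowest value in replicate 1. Without that replicate the list's median was -0.06, with 23 to 25 members below 0 whichever library was left out, and 4 to 13 lower at an unadjusted p under 0.05 (4 without replicate 1 of either shHuR group, 6 without untreated shControl replicate 1, 13 without treated shControl replicate 1). The gene-by-gene test of the difference between lines called none of them: for PDK1 it was -0.26 (unadjusted p = 0.0562) and for BNIP3 -0.27 (unadjusted p = 0.115). VEGFA, the vascular growth factor, was at -0.11 (95% interval -0.22 to 0.0029). Among 27 genes of glycolysis and the pentose phosphate path, 6 had estimates above 0 and 21 below, with 4 lower at an unadjusted p under 0.05, where 3.14% of all genes were. There were 10 without treated shControl replicate 1, 2 without untreated shHuR replicate 1 and 1 without treated shHuR replicate 1, and without the last 2 of these libraries in turn the median was -0.03 and -0.04. With all libraries their median was -0.07, with 0.01 in shControl and -0.12 in shHuR.

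The core of the hypoxia response element, ACGTG on either strand, lay in the 250 bases before the start of 14 of 24 HIF list members with a window (58.3%) and of 21.7% of 27305 genes. Of these 14, 6 had an unadjusted p under 0.05, and the others had negative estimates at a larger p. P4HA2 and KDM3A had a window without the element and were also lower at an unadjusted p under 0.05. A match says nothing of binding. The stretches below belong to the 6 members with the element and an unadjusted p under 0.05, are in GRCh38.p14 as given by RefSeq, and have the element in capitals, which reads CACGT where it lies on the other strand. They are at chr10:73096935-73096964 on the minus strand for P4HA1, chr2:172556070-172556089 on the plus strand for PDK1, chrX:78104053-78104082 on the plus strand for PGK1, chr10:131982039-131982068 on the minus strand for BNIP3, chr11:18394478-18394507 on the plus strand for LDHA and chr1:231422288-231422312 on the minus strand for EGLN1. P4HA1 and EGLN1 held 1 match in the window, PDK1 and PGK1 held 2 and LDHA held 5, of which 1 is in capitals. The 2 matches of BNIP3 are 1 palindromic site read on both strands.
P4HA1: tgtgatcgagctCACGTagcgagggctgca
PDK1: cgccacgtccctCACGTacc
PGK1: aaacggaagccgCACGTctcactagtaccc
BNIP3: cgcacgcgccgcACGTGccacacgcacccc
LDHA: cgtgggttcccgCACGTccgccggcccccc
EGLN1: gggccgtggtgtACGTGcagagcgc

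**Figure D4:**
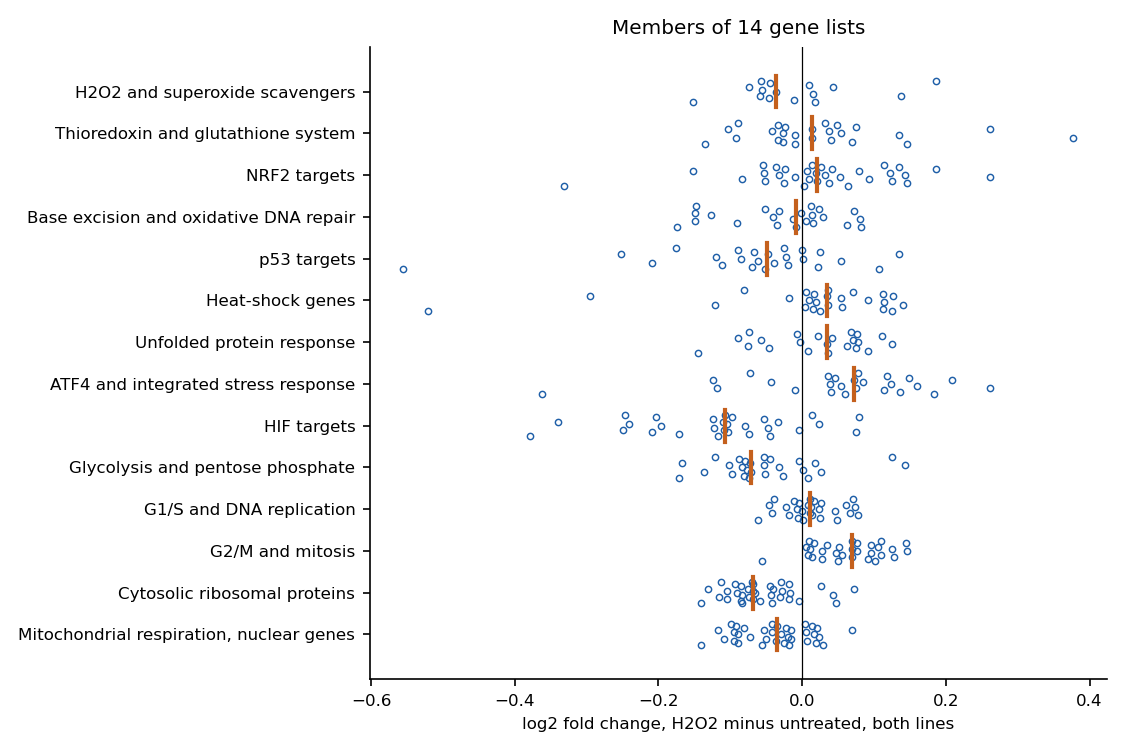
Log2 fold change of H2O2 minus untreated (horizontal axis, both lines) for each tested member (circle) of 14 gene lists (rows), with list medians as orange bars. Medians run from -0.11 for HIF targets to 0.07 for ATF4 targets and for G2/M genes. No circle passed the adjusted threshold in edgeR with the low-count filter.

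Cell cycle genes of G2 and mitosis were the list with the most uniform direction. Of 30 tested, 29 had estimates above 0 and 1 below, with a median of 0.07, 0.06 in shControl and 0.07 in shHuR. Of these, 6 were higher at an unadjusted p under 0.05 and none lower, where 2.31% of all genes were higher. CCNB2, a mitotic cyclin, was at 55.4 and 56.8 CPM untreated and 63.6 and 62.2 CPM treated in shControl cells, and at 61.0 and 65.3 against 68.2 and 69.8 CPM in shHuR cells. Treated libraries were above untreated ones in each line (0.15, SE 0.0482, edgeR adjusted p = 0.900). The cytokinesis protein ANLN (0.12), the spindle factor TPX2 (0.11), CCNA2, cyclin A (0.10), the checkpoint kinase BUB1 (0.11) and CDC20, an activator of the anaphase-promoting complex (0.13), made up the others. The mean log2 deviation of the list was -0.08 and -0.05 untreated and -0.00012 and -0.02 treated in shControl libraries, and 0.01 and -0.0011 against 0.06 and 0.09 in shHuR libraries. All intervals of this list lay within 0.5 of 0. With single libraries left out, 23 to 30 members lay above 0 and 3 to 8 were higher at that p. There were 3 without untreated replicate 1 of either line or without either treated shHuR library. Of 28 genes of G1/S and DNA replication, 17 were above 0 and none had an unadjusted p under 0.05, where 5.45% of all genes had one. CDKN1B, the inhibitor p27 and no member of that list, was at 0.17 (unadjusted p = 0.00541).

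Ribosomal protein genes had a median of -0.07, with 4 of 35 above 0 and 31 below and 3 lower at an unadjusted p under 0.05, where 3.14% of all genes were. That count was 0 without replicate 1 of either shHuR group, 1 without treated shControl replicate 2, 8 without untreated shHuR replicate 2 or with library size alone, and 14 without treated shControl replicate 1. The lowest mean log2 deviation, -0.15, was that of the treated shHuR replicate 1, where the other 7 libraries ran from -0.05 to 0.08, and without that library the median was -0.03. Of 35 nuclear genes of mitochondrial respiration, 10 were above 0 and none had an unadjusted p under 0.05, where 5.45% of all genes had one. Their median of -0.03 ranged from -0.07 to 0.00057 as libraries were left out. Both lists had every interval within 0.5 of 0.

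**Figure D5:**
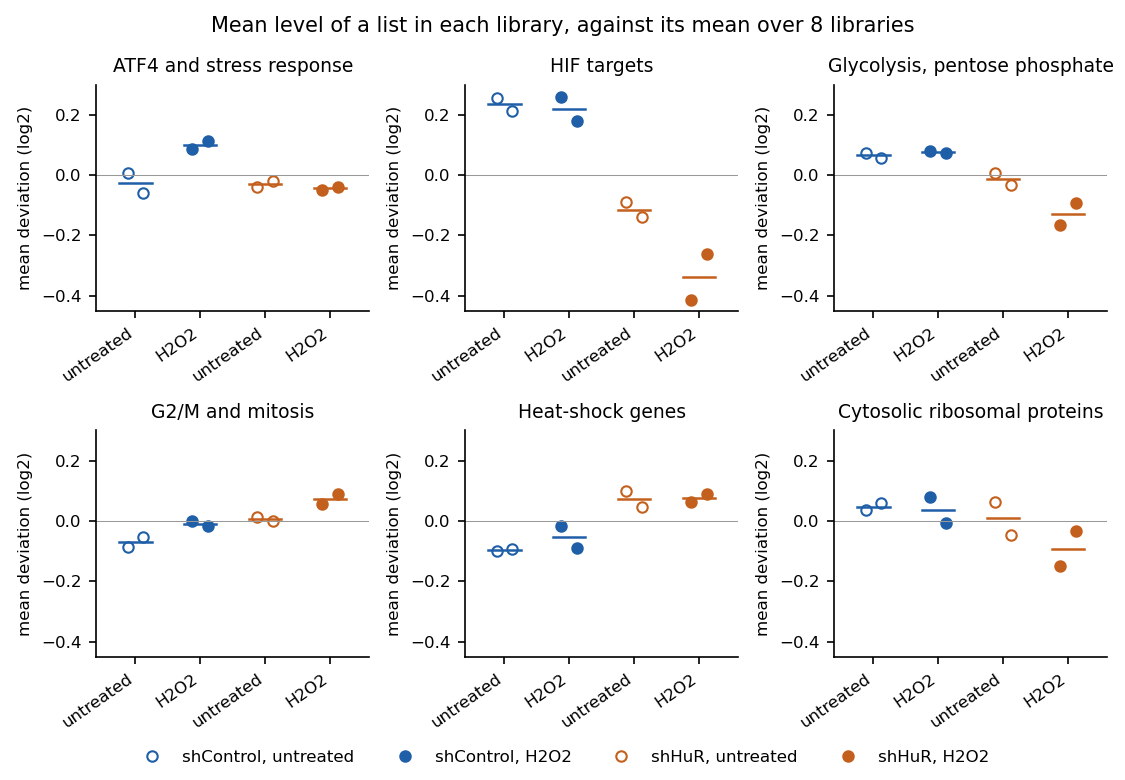
Mean log2 deviation of the members of 6 gene lists (vertical axis, each gene's log2 CPM minus its mean over 8 libraries, averaged over the list) in each untreated (open) and H2O2-treated (filled) library of the shControl (blue) and shHuR (orange) lines, with bars at group means. The ATF4 list is higher in the treated shControl libraries, the HIF list lower in the treated shHuR libraries, down to -0.41, and the G2/M list higher in the treated libraries of each line.

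In the other lists at most 4 members had an unadjusted p under 0.05, where 5.45% of all genes had one. The 4 were among 31 replication-dependent histone genes, all lower, where 3.14% of all genes were, with a list median of -0.03. Of 18 FOXO targets 2 were higher, where 2.31% of all genes were, and of the 13 HEK293T genes 2 were lower. TFRC, the transferrin receptor, was at 317 and 319 CPM untreated and 300.4 and 284 CPM treated in shControl cells, and at 315 and 284 against 258 and 282 CPM in shHuR cells (-0.14, SE 0.0480, edgeR adjusted p = 0.900). Of 20 iron and haem genes, 2 were higher at an unadjusted p under 0.05, where 2.31% of all genes were. They were NCOA4, which delivers ferritin to lysosomes (0.10), and ALAS1, the first enzyme of haem synthesis (0.13). The metallothioneins MT2A and MT1X, induced by metals and oxidants, were at -0.18 and -0.15 with intervals that included 0. Of 25 immediate early genes the median was 0.0027, with FOS at 0.19 (95% interval -0.45 to 0.83) on about 1 CPM, and EGR1 was too low to be tested. Of 16 tested NF-kB and cytokine genes and 28 tested sterol and fatty acid genes, 0 and 2 had an unadjusted p under 0.05, against 5.45% of all genes. Of 29 reported HuR-bound mRNAs, 21 were above 0 with a median of 0.02. At an unadjusted p under 0.05, 3 of them were higher and none lower, where 2.31% of all genes were higher and 3.14% lower. Of 18 AU-rich element binding proteins, HuR's class, 12 were above 0 with a median of 0.05. None of these had such a p, against 5.45% of all genes.

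Outside the lists, the genes with the smallest p that reached 5 CPM in the higher group and did not overlap within each line had whole-number counts apart from RPL21. Those higher with H2O2, beside SLC7A11, were NOL6, which processes ribosomal RNA, ABCE1, which recycles ribosomes, HS6ST2, a heparan sulfate sulfotransferase, RBM22, a splicing factor, and RPAP1, an RNA polymerase II associated protein, with estimates from 0.16 to 0.25. ABCE1 was at 279 and 273 CPM untreated and 309 and 304 CPM treated in shControl cells, and at 287 and 283 against 323 and 315 CPM in shHuR cells. All 4 treated libraries were above all 4 untreated ones, as for 115 of 15801 genes (0.728%). Those lower, beside RPL21, were CCDC28B, the galactose kinase GALK1, the noncoding RNA LINC00085, TMEM74B and the small GTPase RAB13, from -0.59 to -0.24. GALK1 was at 24.3 and 24.7 CPM untreated and 21.6 and 19.5 CPM treated in shControl cells, and at 26.4 and 25.6 against 19.7 and 20.8 CPM in shHuR cells. Here all 4 treated libraries were below all 4 untreated ones, as for 150 of 15801 genes (0.949%). The order within each line was a condition for naming all these genes and is no result. All had an edgeR adjusted p of 0.900 except SLC7A11 and RPL21. The largest estimates that met the same conditions were those of MPV17L2 (0.34), MOB3B (0.29) and CTH, which makes cysteine from cystathionine (0.29), and, below 0, of C1orf151-NBL1 (-0.70, counts that were not whole, and -0.35 without treated shControl replicate 1), the inactive rhomboid RHBDF1 (-0.60) and LINC00085 (-0.59). CTH went from 23.4 and 23.7 to 27.5 and 31.2 CPM in shControl cells and from 17.3 and 20.1 to 23.4 and 21.5 CPM in shHuR cells.

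Within each line, and for the difference between lines, no gene passed either. Among 16005 genes edgeR called 0 in shControl (0%), with 695 at an unadjusted p under 0.05 (4.34%), 0 in shHuR (0%), with 540 (3.37%), and 0 for the difference (0%), with 580 (3.62%). DESeq2 called 2, 3 and 3 genes and limma on log2(FPKM + 1) called 3, 2 and 3. The genes named below, within lines and for the difference, had the smallest p among those with at least 5 CPM in a group mean. In shControl the 3 were NBL1 (1.28) and ASB3 (-0.54), both with counts that were not whole numbers, and C22orf46 (-0.53). NBL1 went from 3.88 and 3.03 to 10.2 and 6.60 CPM while C1orf151-NBL1 went from 6.15 and 8.72 to 1.12 and 5.56 CPM, and their sum ran from 10.0 to 12.2 CPM over the 4 libraries. In shHuR the 3 were TICAM2 (1.68), PPFIA4, a liprin (-0.59), and FAM133DP (-0.44). PPFIA4 was at 29.3 and 29.4 CPM untreated and 24.0 and 27.2 CPM treated in shControl cells, and at 16.3 and 15.7 against 10.2 and 11.1 CPM in shHuR cells. For the difference, HMGN5, a nucleosome-binding protein, led with -0.58 in shControl and 0.35 in shHuR (difference 0.93, SE 0.193, edgeR adjusted p = 1.00). Its levels were 18.6 and 22.1 CPM untreated and 12.3 and 14.9 CPM treated in shControl cells, and 12.5 and 15.1 against 16.8 and 18.5 CPM in shHuR cells. ZNF787 (difference -0.59) and JAG2, a Notch ligand (-0.51), followed.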

How the data were processed

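The 12 libraries were single-end, directional and depleted of ribosomal RNA, per the labels' protocols. The submitters' processing notes name cutadapt 1.8, Bowtie2 2.2, TopHat2 2.1, Cufflinks 2.2, Cuffnorm, Cuffdiff and the builds GRCh37 and hg19, without their roles. Whether counting used strand is not given in the sources used here. The deposited files were estimated counts by gene symbol, of which 2.25% of values in 701 genes (2.97%) were not whole, and a table of FPKM values scaled by the authors. Estimated counts were rounded to whole numbers. Genes were kept with filterByExpr (minimum count 10, by group), and libraries were scaled by TMM.

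H2O2 was compared with untreated using edgeR 4.0.16 (R 4.3.3), a quasi-likelihood F-test with line as a covariate, 5 residual degrees of freedom and Benjamini-Hochberg adjustment over all genes tested (threshold 0.05). The biological coefficient of variation was 7.47% (common dispersion 0.00558). Comparisons within a line and of the lines' responses used 6 group means over 12 libraries. Standard errors are the log2 fold change over the square root of F, and intervals are 95%. CPM used TMM-scaled library sizes, and without molecular identifiers reads do not count independent molecules. DESeq2 1.42.0 and limma 3.58.1 with trend on log2(FPKM + 1) were alternatives, and the latter understates fold changes of low genes. Of the tested genes 91.0% matched GENCODE release 29. Scripts were checked on simulated data.

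The comparison, its gene lists and tests were chosen with earlier results of these data known. Named genes were 30 genes chosen by name (stress genes and ELAVL1) whatever their values, and up to 4 members a list with the smallest p. Also named were the 6 smallest p and 3 largest folds in each direction whose higher group had at least 5 CPM and that had no overlap within each line. To these were added the 3 smallest p within lines and between them at 5 CPM or more in the highest group, and the 5 smallest for H2O2 against HNE. Other list members with an unadjusted p under 0.05 were named after their values were seen.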

Additional observations from a re-analysis of the deposited data

Results flagged for a closer look

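Of 140 groups of 4 libraries (70 genes, H2O2 or untreated), 3 held an outlying library. Its gap to the nearest other, as a share of the group's range, exceeded the 95% critical value of Dixon's test. In groups drawn from 1 population chance alone would mark about 1 in 20. Each group here pooled both lines, so that rate need not hold. RPL21 was at 104 CPM in replicate 2 of the H2O2-treated shHuR group and at 139 to 144 CPM in the other treated libraries. MDM2 was at 369 CPM in replicate 1 of the untreated shHuR group and at 354 to 356 CPM in the other untreated libraries. TFRC was at 284 CPM in replicate 2 of the untreated shHuR group, against 315 to 319 CPM in the other untreated libraries.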

How the results depend on the processing

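The count of 0 genes for H2O2 over both lines was the same with median-ratio size factors, library size alone, a mean CPM of at least 1, all 12 libraries and the replicate number as a block. It was 3 with DESeq2, 117 with no low-count filter, 2 with limma at either pseudocount (1 or 0.1), 1 with limma without a filter, and 0 to 1 when 1 library was left out. Among alternatives chosen after seeing the data, it was 0 with whole-number genes alone or with pairs summed in edgeR, and 1 with pairs summed in DESeq2. In shControl the count was 2 with DESeq2, 91 without a filter, 3, 5 and 3 with limma (pseudocount 1, 0.1, and 1 without a filter), and 0 to 4 with 1 library left out. In shHuR these were 3, 33, 2, 2, 2 and 0 to 1, and 8 when its 4 libraries were fitted alone. For the difference between lines they were 3, 36, 3, 0, 2 and 0 to 3. HNE against untreated gave 181 genes with DESeq2, 334 without a filter, 2, 4 and 1 with limma, 68 with all 12 libraries, and 3 to 168 with 1 library left out. H2O2 against HNE gave 325, 668, 5, 6, 2, 84 and 5 to 267, and 29 with median-ratio factors and 30 with a mean CPM of at least 1. Where a left-out library left 1 in its group, that library was taken to vary like the others. The cause was not tested for any of these counts.

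The replicate block gave 14 genes for HNE and 10 for H2O2 against HNE, and changed no call for H2O2 against untreated. Deviations of same-numbered untreated and H2O2 libraries correlated across 11359 genes at -0.23 in shControl and -0.43 in shHuR, and only numbers link them, so the block is no pairing. Between the lines the correlation was -0.28 for the untreated and -0.30 for the treated groups. It was 0.47 between treated shControl and untreated shHuR, and 0.21 between untreated shControl and treated shHuR. Exchanging the numbers in the treated shControl and untreated shHuR groups, chosen after seeing this, gave 52 genes over both lines. Within a line the exchanged block was fitted to that line's untreated and H2O2 libraries alone. It gave 74 genes in shControl and 295 in shHuR. The same libraries fitted alone without a block gave 0 in shControl and 8 in shHuR.

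Signs near 0 turned as single libraries were left out: KEAP1 (-0.042 to 0.037), HMOX1 (-0.051 to 0.081), GCLC (-0.073 to 0.019), SRXN1 (-0.014 to 0.056), PRDX1 (-0.086 to 0.0071), GPX1 (-0.026 to 0.047), MDM2 (-0.039 to 0.0027), GADD45A (-0.021 to 0.042), OGG1 (-0.28 to 0.00054), HSPA1A (-0.0070 to 0.25), DDIT3 (-0.024 to 0.093) and PIR (-0.019 to 0.14). KEAP1 was at 0.0017 with library size alone, and TICAM2 at -0.021 with its pair summed in either tool. The spread between libraries and their depth were not separated as limits. Among 11359 genes with a mean of at least 5 CPM in the higher group the 95% interval lay within 0.25 of 0 on the log2 scale for 7923 (69.8%).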
